A study of Mus musculus with 4 samples.

Results

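The genes described here encode voltage-gated and related ion channels: potassium, sodium, calcium, chloride and mixed cation channel subunits, chosen by gene symbol. 70 genes of the deposited table carried a matching symbol, and the 66 with a mean expression level of at least 1 over the 4 samples were taken, out of 5282 listed genes. RNA came from corpus callosum (a white matter tract) and cortex, dissected together at postnatal day 15. 2 samples came from Pdgfra-creER;SmoM2 mice, called SmoM2 below, and 2 from mice labelled WT. All 4 samples were from mice injected with tamoxifen from postnatal day 5 to 7. The SmoM2 allele encodes a Smoothened that is always active, the membrane protein that relays the hedgehog signal. Pdgfra-creER drives recombination in cells that express Pdgfra, which in brain are oligodendrocyte precursors and fibroblasts of the coverings and vessels. The labels give no further allele for WT. Smo itself was 10.73 and 10.96 in SmoM2, against 7.12 and 5.75 in WT.

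Voltage-gated channels open when the membrane potential changes. Sodium channels carry the upstroke of the action potential, potassium channels end it and set the resting potential, and calcium channels couple it to transmitter release and gene expression. Myelin gathers sodium channels at the nodes of Ranvier and Kv1 potassium channels beside them. Glia use inward rectifier and tandem-pore potassium channels to clear potassium and to hold a negative resting potential.

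The table gives an expression level per sample. Its unit is not stated: it is taken here as a level scaled for gene length and library size (TPM or FPKM), on which every comparison of levels between genes rests, and depth is unknown. The authors kept only genes with an unadjusted p of at most 0.05 in these samples, so every channel gene here was already selected for a difference and the smallest absolute log2 fold change among them was 0.20. Of 183 protein-coding genes with a matching symbol in the GENCODE M21 annotation, 113 had no row and were not analysed here. Among them are genes of the nodes and of glia: of 18 such genes on a list of them, 6 are among the 66. The 4 matching genes under the level of 1 were Kcnq1 (0.743), Scn7a (0.287), Trpv1 (0.275) and Scn11a (0.0900), and Kcne2 (1.28) and Cacna2d4 (1.31) lay just above it. "Rose" and "fell" are kept for genes whose adjusted p in the authors' deposited table was 0.05 or less, and log2 differences with SE come from limma on log2(level + 1). The labels do not say that samples were separate animals, so p-values may measure technical spread only. In whole tissue, fewer cells of a type and less RNA per cell cannot be told apart.

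11 of the 66 channel genes rose and 13 fell, 36.4% in all, against 38.9% of the 4845 listed genes whose mean level reached 1. The share that rose was 16.7%, against 22.0% of listed genes, and the share that fell was 19.7%, against 16.9%. The channel genes were thus called about as often as the rest of the table. All 11 that rose had both SmoM2 samples above both WT samples, as did 1024 of the 1065 listed genes that rose. Both lay below in 11 of the 13 that fell and in 699 of the 820 listed genes that fell. Over all 66, the groups did not overlap for 51, or 77.3%, against 85.0% of listed genes. SmoM2 was the higher group in 32 of those 51, 48.5% of the 66 against 49.5% of listed genes, and the lower in 19, against 35.5% of listed genes. The mean level was higher in SmoM2 for 33 of the 66, against 53.5% of listed genes. The authors' fold change was above 1 for 32 of the 66, or 48.5%, against 52.5% of listed genes. Its median on the log2 scale was -0.20, against 0.23 over all listed genes. The selection left no channel gene nearer 0 than about 0.20, so that median sits at the edge of an empty gap. The median limma log2 difference was 0.10, against 0.25 over all listed genes. A limma fit to the levels, with Benjamini-Hochberg adjustment over the 57010 tests behind the authors' adjusted p, called 0 of the 66 and 6 of the 4845 (0.124%, of which 0.0413% higher and 0.0826% lower). Before adjustment 38 of the 66 had a limma p under 0.05, 57.6%, against 55.5% of listed genes. The calls below therefore rest on the authors' test.

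**Figure D1:**
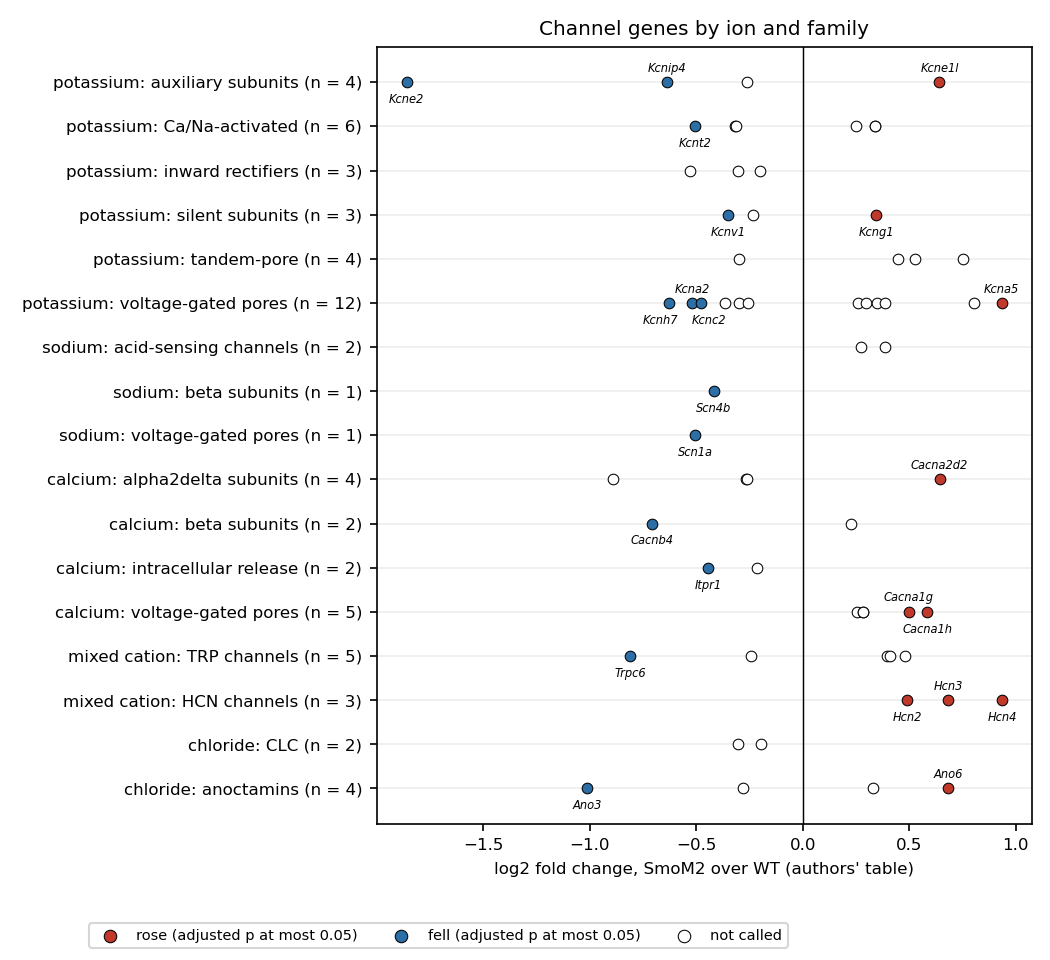
Log2 fold change of SmoM2 over WT in the authors' deposited table (x axis) for 63 channel genes, in rows by ion and family; filled points passed an adjusted p of 0.05 (red rose, blue fell) and open points did not. All 5 voltage-gated calcium pore genes lie to the right of 0, Hcn2, Hcn3 and Hcn4 rose, and most other families have members on both sides.

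The hyperpolarization-activated (HCN) channels, which carry the pacemaker current of neurons and heart, held 3 of the 11 genes that rose, Hcn2, Hcn3 and Hcn4. Over all listed genes, 22.0% rose. Hcn2 (chr10:79716634-79736108, GRCm38), the mixed cation channel gene of highest level, was 82.53 and 81.88 in SmoM2, against 51.53 and 59.58 in WT. Both SmoM2 samples were nearly equal and lay above both WT samples. Its log2 difference was 0.56 ± 0.11 (SE), and the authors' deposited table gave log2 0.49 and adjusted p 0.000366. Hcn4 (chr9:58823412-58863175), the main sinoatrial node isoform, was 5.07 and 5.0 in SmoM2, against 2.21 and 2.79 in WT. For Hcn4 the authors' deposited table gave log2 0.94 (adjusted p = 1.33e-05), above its values for Hcn2 and Hcn3. Hcn3 was 17.65 and 14.04 in SmoM2, against 9.37 and 10.83 in WT, with a log2 difference of 0.60 ± 0.16 (SE). In all 3 genes both SmoM2 samples lay above both WT samples, as in 1024 of the 1065 listed genes that rose. Transcript GC content was 65.4% for Hcn2 and 58.0% each for Hcn3 and Hcn4. Of listed genes above 52.1%, 91.8% had a fold change above 1 in the authors' deposited table. What part base composition has in these 3 rises was not tested. An exon of Pklr overlaps Hcn3 on the opposite strand, and the sources used here do not say whether reads were counted by strand. Of the 24 channel genes called, 10 share an exon stretch with another gene. For Hcn3, Cacna1h, Ano3, Kcnh7 and Kcnip4 a protein-coding gene is among these. For Ano6, Cacna2d2, Cacnb4, Itpr1 and Kcnt2 the other gene is not annotated as protein-coding. In all 10 it lies on the opposite strand.

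The promoters of Hcn2 and Hcn4, which rose together, and of Scn1a and Kcna2, which fell, are shown to let their base composition be compared. Each runs from 250 bases before to 50 after the start of the RefSeq gene on GRCm38.p6, 5′ to 3′ on the gene's strand, with CG dinucleotides in capitals. Hcn2 is from chr10:79716384-79716683 (plus strand), Hcn4 from chr9:58822699-58822998 (plus), Scn1a from chr2:66440788-66441087 (minus) and Kcna2 from chr3:107101317-107101616 (plus).
Hcn2 promoter: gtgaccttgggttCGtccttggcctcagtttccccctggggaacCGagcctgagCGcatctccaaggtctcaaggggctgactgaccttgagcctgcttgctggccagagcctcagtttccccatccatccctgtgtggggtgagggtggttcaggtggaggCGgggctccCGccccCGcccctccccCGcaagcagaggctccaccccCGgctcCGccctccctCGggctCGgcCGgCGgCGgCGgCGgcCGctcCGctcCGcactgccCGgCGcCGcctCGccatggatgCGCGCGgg
Hcn4 promoter: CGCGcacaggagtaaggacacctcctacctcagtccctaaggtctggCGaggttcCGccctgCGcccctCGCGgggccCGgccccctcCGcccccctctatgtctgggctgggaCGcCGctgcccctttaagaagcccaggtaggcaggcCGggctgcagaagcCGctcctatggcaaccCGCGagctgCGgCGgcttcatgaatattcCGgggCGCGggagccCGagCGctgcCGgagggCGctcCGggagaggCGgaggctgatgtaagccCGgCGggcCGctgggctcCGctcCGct
Scn1a promoter: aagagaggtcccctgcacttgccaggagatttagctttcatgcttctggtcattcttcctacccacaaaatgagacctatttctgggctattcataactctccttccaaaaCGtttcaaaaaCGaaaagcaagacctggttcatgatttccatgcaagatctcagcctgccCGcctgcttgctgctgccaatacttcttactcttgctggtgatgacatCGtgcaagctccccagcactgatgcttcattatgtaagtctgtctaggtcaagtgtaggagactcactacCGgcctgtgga
Kcna2 promoter: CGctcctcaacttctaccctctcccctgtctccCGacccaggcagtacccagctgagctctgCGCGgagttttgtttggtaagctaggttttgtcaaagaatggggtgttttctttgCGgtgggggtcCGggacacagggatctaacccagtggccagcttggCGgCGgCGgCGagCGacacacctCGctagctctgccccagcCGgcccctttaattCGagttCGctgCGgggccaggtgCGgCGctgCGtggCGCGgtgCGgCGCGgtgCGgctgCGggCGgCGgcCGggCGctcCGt
The Hcn2 window holds 26 CG dinucleotides and the Hcn4 window 31, while that of Scn1a holds 5 and that of Kcna2 holds 31. The median over all 32851 promoters of the RefSeq table is 7, and 94.6% of them hold at least 1. 47 of the 66 genes matched that table, with 63 promoters in all and a median of 14. The median was 27.5 over the promoters of the 6 genes that rose and have an entry, and 7 over the 19 promoters of the 11 genes that fell and have one. Kcna2, with 31, was thus far above the median of the genes that fell. With entries for only 6 of 11 genes that rose, a comparison of promoters over the whole set is void. GACCACC, the core of the site bound by the GLI factors of the hedgehog pathway, was searched on both strands. It was present in 1 of the 63 promoters, that of Cacnb4, or 1.59%, against 2.80% of all promoters of the table.

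All 5 listed pore genes of voltage-gated calcium channels had both SmoM2 samples above both WT samples, as 49.5% of listed genes did. Transcript GC content was above 52.1% in all 5. Of listed genes above that, 91.8% had a fold change above 1 in the authors' deposited table. The part of base composition here was not tested. 2 of the 5 rose, against 22.0% of listed genes. Both are low-threshold T-type channels, which open near the resting potential and support burst firing. Cacna1g (chr11:94408391-94474198, GRCm38) was 38.49 and 33.87 in SmoM2, against 17.78 and 23.11 in WT. That is a log2 difference of 0.80 ± 0.16 (SE), and the authors' deposited table gave log2 0.50 and adjusted p 0.000468. Cacna1h was 16.46 and 12.78 in SmoM2, against 9.77 and 8.14 in WT, with a log2 difference of 0.64 ± 0.18 (SE). The adjusted p of Cacna1h was 3.9e-05 in the authors' deposited table, and an exon of Tpsg1 overlaps it on the opposite strand. The third T-type gene, Cacna1i, was 27.67 and 27.22 in SmoM2, against 18.19 and 23.92 in WT, without passing (adjusted p = 0.250 in the authors' deposited table). The presynaptic channels that trigger transmitter release did not pass either. Cacna1a, of P/Q-type channels, was 118.28 and 108.94 in SmoM2, against 72.37 and 94.32 in WT. Cacna1b, of N-type channels, was 28.21 and 27.34 in SmoM2, against 18.01 and 23.32 in WT. Summed over the 5 genes, the level was 229.1 and 210.2 in SmoM2, against 136.1 and 172.8 in WT. In the 3 genes that did not pass, WT replicate 2 lay nearer the SmoM2 samples than WT replicate 1 did.

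The auxiliary calcium channel subunits, which bring the pore to the membrane and tune its gating, moved both ways. Cacna2d2, an alpha2delta subunit, rose, with 17.26 and 17.73 in SmoM2, against 11 and 8.69 in WT. Its log2 difference was 0.78 ± 0.15 (SE), with an adjusted p equal to 8.91e-06 in the authors' deposited table. Cacna2d1 and Cacna2d3, the higher-level alpha2delta genes, had log2 fold changes of -0.26 each in the authors' deposited table with overlapping groups. Cacna2d4 was 1.03 and 2.16 in SmoM2, against 1.13 and 0.91 in WT. It was the only one of the 66 whose fold change in the authors' deposited table (log2 -0.89) and mean levels went opposite ways, so it is given no direction. Cacnb4 (chr2:52428320-52676831), a beta subunit, fell, with 22.29 and 19.43 in SmoM2, against 27.35 and 38.37 in WT. Its log2 difference was -0.62 ± 0.18 (SE), with an adjusted p equal to 7.77e-09 in the authors' deposited table, and went to -0.38 without WT replicate 2. Cacnb3, the calcium channel gene of highest level, was 198.62 and 206.25 in SmoM2, against 152.80 and 176.13 in WT, and did not pass (adjusted p = 0.303 in the authors' deposited table).

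Among the channels that release calcium from internal stores, Itpr1, the main neuronal inositol trisphosphate receptor, fell. It was 25.36 and 25.95 in SmoM2, against 31.40 and 35.00 in WT, with a log2 difference of -0.36 ± 0.11 (SE) and an adjusted p equal to 0.00135 in the authors' deposited table. Ryr2, a ryanodine receptor, was 17.94 and 19.50 in SmoM2, against 16.98 and 20.72 in WT, so that the WT samples enclosed the SmoM2 samples.

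Potassium channels made up 32 of the 66 genes. Of these, 3 rose, 9.38% against 22.0% of listed genes, and 7 fell, 21.9% against 16.9%. Their median log2 fold change was -0.24 in the authors' deposited table, where 14 had a fold change above 1 and 18 below. The median limma log2 difference was -0.13 over 4 samples and 0.094 without WT replicate 2. Of 12 voltage-gated pore genes, Kcna5 rose and Kcna2, Kcnc2 and Kcnh7 fell. Kcna2 encodes a Kv1 subunit of axons, placed beside the node under the myelin. It was 15.52 and 15.25 in SmoM2, against 17.85 and 23.99 in WT, with an adjusted p equal to 0.000115 in the authors' deposited table. Its log2 difference of -0.41 ± 0.16 (SE) went to -0.20 without WT replicate 2 and to -0.61 without WT replicate 1. Kcna1, its usual partner in those axonal channels, was 8.05 and 7.91 in SmoM2, against 8.49 and 10.99 in WT, and did not pass (adjusted p = 0.203 in the authors' deposited table). Kcnc2, a fast Kv3 channel of fast-spiking interneurons, was 19.25 and 20.89 in SmoM2, against 23.67 and 28.21 in WT. The log2 difference of Kcnc2 was -0.35 ± 0.13 (SE) and -0.23 without WT replicate 2, and its adjusted p was 0.000948 in the authors' deposited table. Of 9 inhibitory neuron markers, 6 had a row. Pvalb, which marks fast-spiking cells, fell, with 12.44 and 19.57 in SmoM2, against 29.40 and 29.02 in WT, and Vip fell too. Sst, Calb2, Slc32a1 and Dlx1 rose, and the summed level was 994 and 1099 in SmoM2, against 834 and 741 in WT. The part of these cells in the differences of Kcnc2 and Scn1a was not tested. Kcnh7, an ERG-family channel, was 6.14 and 5.16 in SmoM2, against 6.44 and 10.81 in WT. The gap between the groups was small beside the spread of WT: the log2 difference of Kcnh7 went from -0.50 over 4 samples to -0.17 without WT replicate 2 and to -0.83 without WT replicate 1.

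Kcna5, a Kv1 channel known from heart and vascular muscle, was 3.73 and 4.59 in SmoM2, against 2.22 and 1.88 in WT, with a log2 difference of 0.76 ± 0.21 (SE). Its adjusted p was 0.00973 in the authors' deposited table. Of 8 pericyte and smooth muscle markers 5 had a row and 3 rose, Vtn, Acta2 and Notch3, with summed levels of 136 and 113 in SmoM2, against 72.7 and 55.9 in WT, most of it Vtn. Myh11, which defines smooth muscle, was 1.72 and 0.38 in SmoM2, against 0.40 and 0.88 in WT, and did not pass. The part of these cells in the rise of Kcna5 was not tested. Kcna3, its low-level neighbour in the family, was 3.62 and 2.36 in SmoM2, against 1.46 and 1.82 in WT, without passing. Kcnh3 had the highest level among potassium channel genes and encodes an Elk-type channel of forebrain neurons. It was 102.23 and 97.91 in SmoM2, against 75.08 and 83.37 in WT, and its adjusted p was 0.182 in the authors' deposited table. Of the other pore genes, Kcnc4, Kcnd1 and Kcnh2 had log2 fold changes of 0.30, 0.39 and 0.35 in that table, and Kcnh1 and Kcnq5 had -0.26 and -0.30. None of those 5 passed.

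Silent subunits do not conduct alone but modify Kv2 channels. Kcng1 rose, with 33.69 and 32.82 in SmoM2, against 24.88 and 25.06 in WT, tight values in both groups (adjusted p = 0.0435 in the authors' deposited table). Kcnv1 was called lower in that table at an adjusted p of 0.0401, yet its levels were 37.83 and 40.91 in SmoM2, against 36.60 and 43.52 in WT. With a log2 difference of -0.02 ± 0.12 (SE) and overlapping groups, its levels show no fall. Kcnf1 did not pass.

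Of 4 auxiliary potassium channel subunits, 2 fell and 1 rose. Kcnip4, a calcium-binding partner of Kv4 channels, was 35.69 and 33.55 in SmoM2, against 46.30 and 56.43 in WT. Its log2 difference was -0.55 ± 0.13 (SE), with an adjusted p equal to 2.42e-06 in the authors' deposited table. Kcne2, a small subunit that choroid plexus epithelium expresses, was 0.25 and 0.90 in SmoM2, against 1.31 and 2.65 in WT. Its adjusted p was 0.00817 in the authors' deposited table, and its log2 difference went from -0.91 over 4 samples to -0.58 without WT replicate 2. The list of 7 choroid plexus markers, which holds Kcne2 itself, had a summed level of 77.6 and 630.9 in SmoM2, against 1224 and 1189 in WT, and 5 of its genes fell. Ttr made up most of that sum, with 71.24 and 618.04 in SmoM2, against 1203 and 1162 in WT. How much of the fall of Kcne2 goes with choroid plexus content was not tested. Kcne1l, a KCNE-family gene that the table describes as a pseudogene and GENCODE M21 as protein-coding, rose. It was 15.73 and 21.76 in SmoM2, against 12.92 and 9.68 in WT (adjusted p = 0.0208 in the authors' deposited table). Kcnab1, a beta subunit of Kv1 channels, did not pass.

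Channels gated by internal calcium or sodium were 6 genes, of which Kcnt2 fell. Kcnt2, a sodium-activated channel, was 5.80 and 5.71 in SmoM2, against 7.30 and 8.88 in WT, with a log2 difference of -0.42 ± 0.17 (SE) and an adjusted p equal to 0.0277 in the authors' deposited table. Its relative Kcnt1 was 26.63 and 28.62 in SmoM2, against 20.71 and 22.22 in WT, without passing. The small-conductance genes Kcnn1 and Kcnn3 had log2 fold changes of 0.34 each in the authors' deposited table and Kcnn2 one of -0.31, and the adjusted p was 0.162 or above for all 3. Kcnma1, the large-conductance channel, had overlapping groups and an adjusted p of 0.0503 in that table.

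None of the 3 inward rectifiers and none of the 4 tandem-pore channels passed. Kcnj10, the inward rectifier of astrocytes and oligodendrocytes, was 56.86 and 49.81 in SmoM2, against 58.33 and 58.04 in WT, and its adjusted p was 0.532 in the authors' deposited table. Kcnj2 and Kcnj3 had log2 fold changes of -0.53 and -0.30 in that table. Kcnk1, a tandem-pore gene with glial and neuronal expression, was 71.25 and 78.02 in SmoM2, against 87.35 and 84.06 in WT (adjusted p = 0.124 in that table). The tandem-pore genes Kcnk10, Kcnk12 and Kcnk13 had both SmoM2 samples above both WT samples, as 49.5% of listed genes did. Their log2 fold changes were 0.45, 0.53 and 0.75, with adjusted p-values between 0.0733 and 0.0898 in the authors' deposited table.

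Of the sodium channel genes, Scn1a, a pore gene of inhibitory neurons and nodes, fell at an adjusted p equal to 0.000339 in the authors' deposited table. It was 14.78 and 13.59 in SmoM2, against 14.88 and 20.97 in WT, so WT replicate 1 lay next to the SmoM2 samples. The log2 difference of Scn1a went from -0.30 ± 0.18 (SE) to -0.07 without WT replicate 2 and to -0.53 without WT replicate 1. Scn4b, a beta subunit strongly expressed in striatum, was called lower at an adjusted p equal to 0.0073 in the authors' deposited table although its groups overlapped. It was 9.08 and 27.60 in SmoM2, against 32.31 and 13.15 in WT, and its log2 difference changed sign, from -0.35 over 4 samples to 0.40 without SmoM2 replicate 1 and 0.26 without WT replicate 1. Without SmoM2 replicate 2 it went to -1.11 and without WT replicate 2 to -0.97. Adora2a, the 1 of 6 striatal markers with a row and itself called higher in that table with overlapping groups, was 17.98 and 51.62 in SmoM2, against 28.09 and 12.92 in WT. Within each group the sample with the higher Adora2a was also the one with the higher Scn4b. The acid-sensing genes Asic1 and Asic4 did not pass: Asic1, the gene of highest level here, was 45.86 and 49.72 in SmoM2, against 37.63 and 39.08 in WT.

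Of 6 TRP channel genes 1 fell. Trpc6, a channel opened by diacylglycerol, was 1.91 and 2.21 in SmoM2, against 3.29 and 3.44 in WT, with an adjusted p equal to 0.0379 in the authors' deposited table. Trpm4 had the largest limma log2 difference among genes that did not pass, 0.87 ± 0.16 (SE). It was 13.01 and 13.28 in SmoM2, against 7.62 and 5.96 in WT, but its adjusted p was 0.358 in the authors' deposited table, where its log2 fold change was 0.41. Trpc5 and Trpm2 were above both WT samples in both SmoM2 samples, as were 49.5% of listed genes, and Trpc1 had overlapping groups.

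Chloride channel and anoctamin genes numbered 6. Ano3 fell, with 5.77 and 7.22 in SmoM2, against 11.15 and 14.73 in WT, for a log2 difference of -0.89 ± 0.19 (SE). Its adjusted p in the authors' deposited table, 2.25e-14, was the smallest of the 66 genes. Ano3 (chr2:110655201-110950923, GRCm38) is an anoctamin of neurons in which dystonia mutations are known. Ano6, a calcium-activated phospholipid scramblase of many cell types, rose, with 7.02 and 6.5 in SmoM2, against 4.29 and 3.72 in WT (adjusted p = 0.00234 in the authors' deposited table). Ano8 and Ano4 did not pass, with log2 fold changes of 0.33 and -0.28 in that table. Clcn4 and Clcn3 encode chloride-proton exchangers of endosomes. Clcn4, the gene of highest level in this class, was 95.43 and 97.14 in SmoM2, against 93.54 and 106.20 in WT, and Clcn3 was 57.74 and 56.84 in SmoM2, against 62.27 and 69.88 in WT. Neither passed.

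**Figure D2:**
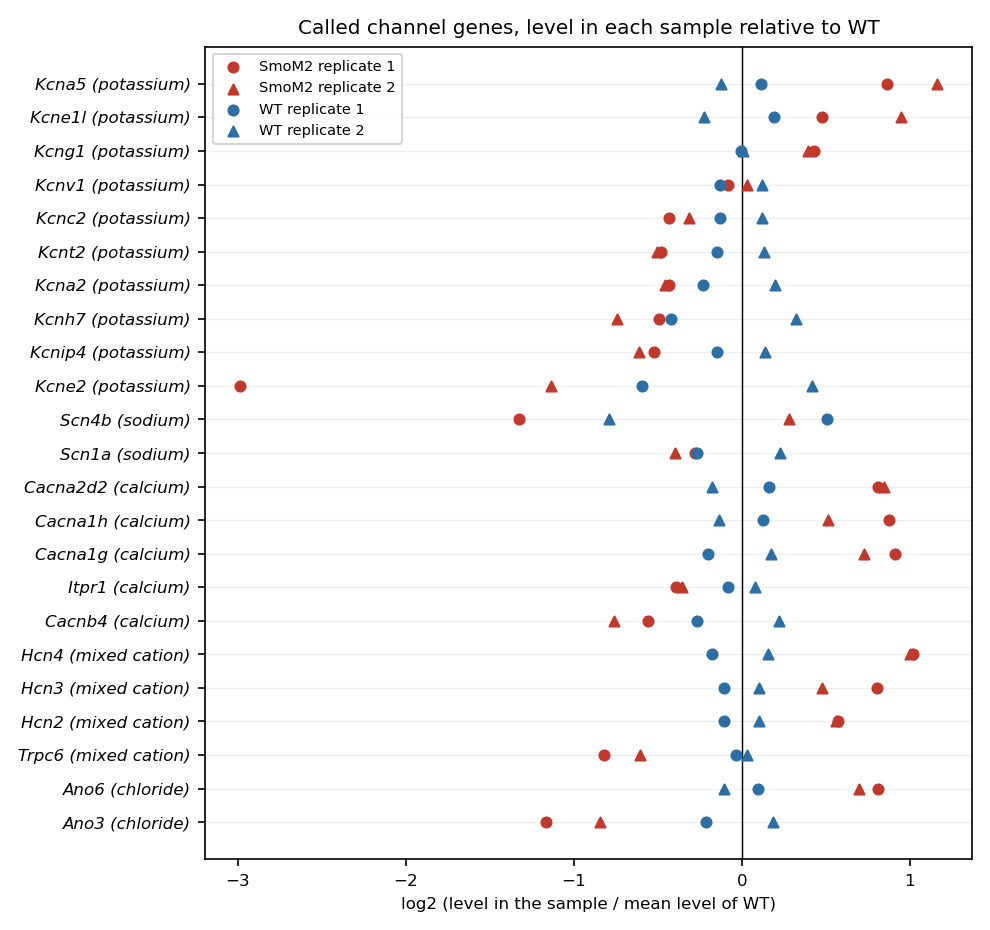
Log2 of the level in each sample over the mean WT level (x axis) for 23 channel genes that rose or fell; red is SmoM2, blue is WT, circles are replicate 1 and triangles replicate 2. Groups overlap for Kcnv1 and Scn4b, and for Kcnh7 and Scn1a WT replicate 1 lies next to the SmoM2 samples.

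The log2 differences of genes that fell moved more with WT replicate 2 than those of genes that rose. The authors' calls themselves were not recomputed with a library left out. In 12 of the 13 genes that fell, WT replicate 2 was above WT replicate 1, with a median log2 ratio of 0.29 between them. Among all listed genes that fell, of which 799 could be compared, it was above in 596, with a median of 0.15. Without WT replicate 2, 6 of the 13 kept their sign and at least 1/1.5 of their log2 difference, whereas all 11 that rose did so whichever library was left out. Of the 24 genes called, 8 had a log2 difference that a single library moved by more than 1.5 times, and none of the 11 that rose was among them. The same counts over all listed genes are not given. Log2 ratios of mean levels lay above the authors' log2 fold changes, by a median of 0.082 for the 66 genes and 0.076 for listed genes. Such an offset makes falls smaller on the levels, so that a relative limit is passed more easily by them. Its part in these counts was not tested. Uncalled channel genes were moved as well. The neuronal marker list had 4 of 10 genes in the table, with a summed level of 4018 and 4100 in SmoM2, against 3582 and 4018 in WT. Its members went opposite ways: Tubb3 rose, with a log2 value of 0.75 in the authors' deposited table, Snap25 and Syt1 fell, with -0.50 and -0.27, and Stmn2 did not pass. The part of neuronal content in the spread between the WT samples was not tested.

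Several families held members of opposite direction, and ratios within a sample show this without any scaling between libraries. The 8 pairs were chosen after the values were seen, so that their directions are fixed by the choice and no test is given. In each of the 8 pairs the gene on top of the ratio had the higher transcript GC content. It was 57.0% for Kcnn1 and 54.4% for Kcnn2, and 54.8% for Kcnt1 and 36.6% for Kcnt2. A ratio does not remove differences that go with GC content, and the part of GC content in these ratios was not tested. With 2 samples a group an exact permutation test could not go below p = 0.333. The Kcnn1 to Kcnn2 ratio was 1.14 and 1.01 in SmoM2, against 0.509 and 0.569 in WT. The Cacna2d2 to Cacna2d1 ratio was 0.417 and 0.385 in SmoM2, against 0.259 and 0.159 in WT. For Kcna5 to Kcna2 it was 0.240 and 0.301 in SmoM2, against 0.124 and 0.0784 in WT. The 2 groups stood apart in each of these, by more than the samples of a group differed except for Cacna2d2 to Cacna2d1. Kcnt1 was 4.59 and 5.01 times Kcnt2 in SmoM2, against 2.84 and 2.50 times in WT. Ano6 was 1.22 and 0.900 times Ano3 in SmoM2, against 0.385 and 0.253 times in WT.

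**Figure D3:**
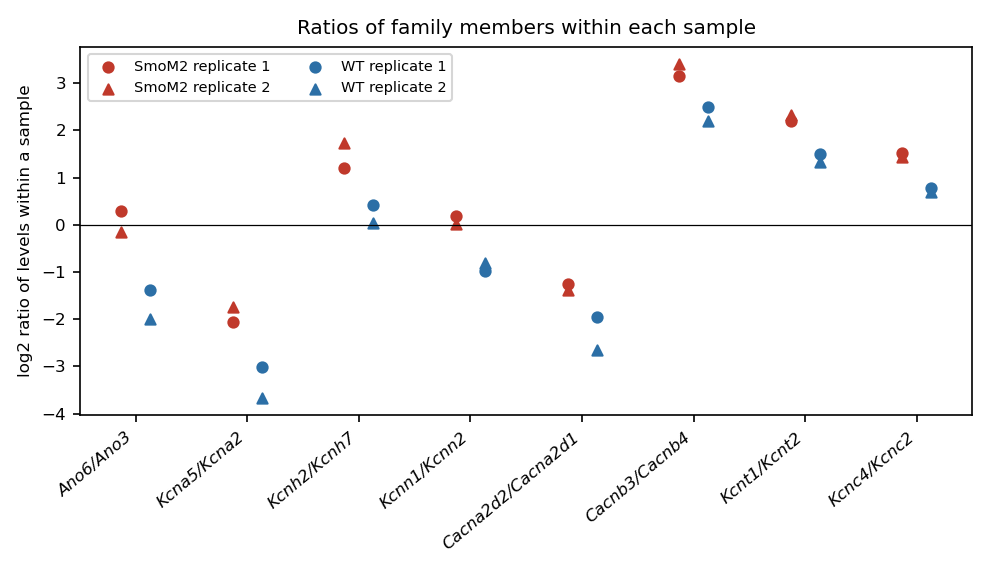
Log2 ratio of the levels of 2 family members within each sample (y axis) for 8 pairs (x axis), with SmoM2 in red at the left of each pair and WT in blue at the right; circles are replicate 1 and triangles replicate 2. The groups do not overlap in any of the 8 pairs, which were chosen for opposite directions.

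The direction of a channel gene went with the base composition of its transcript. GC content was taken from the longest coding transcript of GENCODE M21, which all 66 genes have. The genes that rose had a median GC content of 57.8%, and those that fell 43.3%. Of the 33 channel genes above the median GC content of 52.1%, 28 had a fold change above 1 in the authors' deposited table, and of the 33 at or below it 4 did. The same held across the table: 91.8% of the 2120 listed genes above that GC content had a fold change above 1, against 21.6% of the 2680 at or below it. Across genes, Spearman's rho between GC content and log2 fold change was 0.70 for the 66 channel genes and 0.63 for 4800 listed genes. Genes share libraries and are not independent replicates, so no p is given. Channel genes that fell were also longer on the genome, with a median span of 195.9 kb, against 39.8 kb for those that rose. Over all listed genes the direction was the same, with 32.4 kb for those that fell and 17.8 kb for those that rose. Kcnip4, at 1135 kb, was the longest and had a GC content of 40.1%. The part of base composition in these differences was not tested. Ano6 rose at a GC content of 50.3%, and Scn4b, whose groups overlapped, was the gene among those that fell with the highest, 54.5%.

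**Figure D4:**
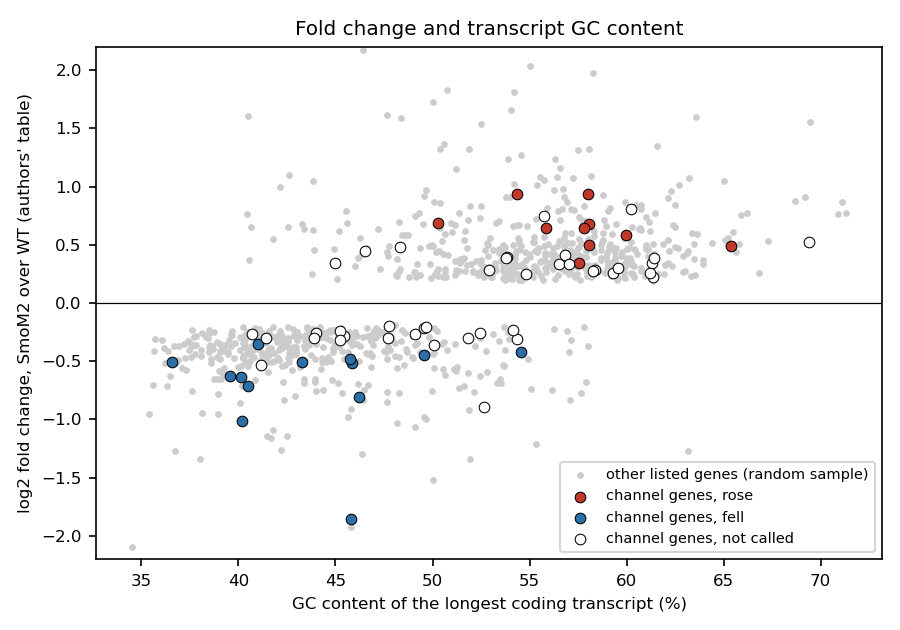
Log2 fold change of SmoM2 over WT in the authors' deposited table (y axis) against GC content of the longest coding transcript (x axis, %) for 63 channel genes (red rose, blue fell, white not called) and 888 of 900 randomly drawn other listed genes that lie within the axis limits of ±2.2 (grey). Channel genes and other genes alike lie mostly above 0 at high GC content and below 0 at low GC content.

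Genes that work with these channels were taken from 6 lists of 110 genes. Of the 8 calcium channel gamma subunit genes, most of which also escort AMPA receptors, 3 had a row and Cacng5 and Cacng8 rose. Cacng8 was 107.59 and 107.16 in SmoM2, against 63.36 and 72.94 in WT. Of 26 partners and anchors 12 had a row, of which 2 rose and 3 fell. Sptbn4, the spectrin of nodes and axon initial segments, and Cntn2, an adhesion molecule beside the node, rose. Dpp10, a Kv4 partner, Dlg1, a scaffold, and Lgi1, a secreted ligand that acts on axonal Kv1 channels, fell. Sptbn4 was 59.07 and 58.01 in SmoM2, against 43.41 and 45.04 in WT, and Dpp10 was 51.16 and 48.31 in SmoM2, against 56.73 and 64.65 in WT. Of 32 other cation channels 5 had a row, and Piezo1, Tpcn1 and Pkd1 rose. Piezo1, a stretch-activated channel, was 3.87 and 4.58 in SmoM2, against 2.21 and 2.30 in WT. The store-operated calcium entry list had 1 of 5 genes with a row, Stim2, which did not pass. Among 18 other anion channel genes 7 had a row, Clic1 and Ttyh3 rose, and Clic6, also a choroid plexus marker, fell. Ion pumps and exchangers had 12 of 21 genes with a row, of which 2 rose and 4 fell. Atp2b4, a calcium pump, rose, with 62.40 and 60.15 in SmoM2, against 44.38 and 46.37 in WT. Slc12a2, the chloride importer of immature neurons and glia, fell, with 9.25 and 8.03 in SmoM2, against 11.88 and 14.02 in WT, and so did Slc24a2 and Atp2b1.

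Markers of other cell types differed between the groups as well. All 12 mature oligodendrocyte markers fell, with a summed level of 3058 and 3449 in SmoM2, against 6400 and 6014 in WT. All 8 leptomeningeal fibroblast markers with a row, of 9, rose, with summed levels of 1738 and 1813 in SmoM2, against 979 and 350 in WT. Ptgds made up most of that sum, with 1641 and 1728 in SmoM2, against 933 and 313 in WT. The 7 of 8 olfactory bulb markers with a row, of which Tbx21 was at 0 in at least 1 sample, summed to 76.0 and 27.3 in SmoM2, against 21.7 and 18.6 in WT, so SmoM2 replicate 1 stood apart. All 5 red blood cell markers fell, with summed levels of 65.6 and 120.4 in SmoM2, against 661.7 and 449.8 in WT. Some other lists moved both ways. Of 7 oligodendrocyte precursor markers with a row, 3 rose and 1 fell. Of 5 astrocyte markers with a row, 2 rose and 1 fell, as did 2 and 1 of 6 microglia markers. Of 6 endothelial markers with a row, 3 rose and 2 fell, and of 4 excitatory neuron markers 1 rose and 1 fell. The 3 defining genes Gad1, Gad2 and Slc17a7 of cortical neurons had no row. What part these cell types have in the channel differences was not tested.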

How the data were processed

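RNA of 4 samples was measured, 2 SmoM2 and 2 WT, in TruSeq libraries per the labels' protocols. The tools RSEM and DESeq2 and the build GRCm38.p6 appear, per the submitters' processing notes, with no version and no role. The deposited table holds an expression level per sample, group means, the authors' ratio of SmoM2 to WT (fold change), the same on the log2 scale, and the p-value before and after adjustment; the authors kept genes with p of at most 0.05. Depth is unknown. The series text pairs column names with samples, and columns were assigned from it.

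Calls use the authors' deposited adjusted p-value (at most 0.05). Means and SDs were taken over the deposited levels. A limma fit (version 3.58.1, R 4.3.3) with a mean-variance trend used log2(level + 1) of the 4845 genes whose mean level reached 1. Differences on that scale understate the change of low genes. The limma p-values were adjusted over 57010 tests, the number that the authors' adjusted p-values imply. The fit was first run on simulated data. The result of that run is not given here, so nothing is concluded from it about the limma calls in these samples.

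Channel genes, lists and tests were chosen with earlier results of these data known. Genes given in full were the called ones without overlap (up to 6 per direction for potassium and calcium, up to 3 for other ions), the highest-level gene of each ion class, and genes of nodes, axons or glia. They number 30. Some genes are not reported here, by name or in the figures. Others, among them Cacna1a, Cacna1b, Cacna1i, Cacna2d4, Kcna3, Kcnt1, Kcnv1, Trpm4 and Clcn3, were chosen after their values were seen, as were those named from the related lists. Coordinates, spans and GC content are from GENCODE M21 (GRCm38), where all 66 identifiers were found; promoters are from RefSeq (GRCm38.p6). 22 channel genes share an exon stretch with a gene on the opposite strand. The alternatives tried were quantile normalization, equal sample medians, pseudocounts of 0.1 and 5, other minimum levels, leaving out each library, an adjusted p of 0.01, limma calls, and the replicate number as a block.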

Additional observations from a re-analysis of the deposited data

How the results depend on the processing

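With limma calls in place of the authors' test, the genes called higher went from 11 to 0 and those called lower from 13 to 0. At an adjusted p of at most 0.01 the authors' deposited table gave 9 and 10. The limma count for the 66 genes was 0 in each alternative run, and the smallest limma adjusted p was 0.301 over 4 samples, 0.299 to 0.418 under the other settings on 4 samples, and 0.849 or above with a library left out. Deviations of same-numbered samples from their group means had r = -0.09 across 4845 genes, with 1 pair per number. With 2 samples a group this is a single comparison, so it cannot tell whether the numbers pair samples. With the replicate block limma called 0. The median log2 difference of the 66 genes, 0.10, was -0.0047 after quantile normalization, 0.0014 with equal sample medians, 0.18 with no minimum level and -0.060 at a minimum of 5, and ran from 0.0035 to 0.27 with a library left out. Equal sample medians shifted all listed genes by -0.11 and quantile normalization by -0.10, and 33 of the 66 were higher in SmoM2 under both, as without them. The potassium median, -0.13, was -0.24 with equal medians and -0.13 to 0.094 with a library left out. The sodium median, 0.31, was 0.0047 at a minimum of 5, and 0.21 to 0.40 with a library left out. The calcium median, 0.33, was 0.18 after quantile normalization and 0.20 to 0.40 with a library left out. The chloride median, -0.12, was -0.22 and -0.24 under these scalings and -0.19 to -0.039 with a library left out. The mixed cation median, 0.32, was 0.18 with a pseudocount of 5, 0.17 after quantile normalization, 0.43 with no minimum and 0.21 at a minimum of 5, and 0.23 to 0.41 with a library left out. The cause of these shifts was not tested. Single genes changed sign with a library left out, and no scaling, pseudocount or minimum turned any of the channel genes reported here. The genes that turned, with their range over the 4 such fits, are Cacna2d1 (-0.31 to 0.039), Cacna2d3 (-0.36 to 0.017), Clcn4 (-0.14 to 0.041), Kcnh1 (-0.45 to 0.053), Kcnj3 (-0.36 to 0.087), Kcnma1 (-0.37 to 0.10), Kcnv1 (-0.14 to 0.10), Ryr2 (-0.14 to 0.13), Scn4b (-1.11 to 0.40) and Trpc1 (-0.32 to 0.091).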
